A study of Homo sapiens with 9 samples.

Results

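DKK1 and 8 further genes of Wnt signalling were followed on expression arrays after a miRNA had been transfected into U87 cells, a human line established from a glioblastoma. The genes were the secreted antagonist genes DKK1 and SFRP1, the DKK family gene DKK3, and the ligand genes WNT5A and WNT5B. The others were the receptor genes FZD1, FZD2 and FZD7, and the co-receptor gene LRP6. All probe sets that the platform annotation assigns to exactly one of these symbols were taken, which gave 26 of 41091 probe sets with a single symbol, for 9 of 19775 genes. DKK1 had 1 probe set, WNT5A, FZD2 and FZD7 had 2 each, WNT5B, FZD1 and LRP6 had 3 each, SFRP1 had 4 and DKK3 had 6. The 9 genes were selected on differences between the groups known from an earlier reading of the same array signals, with no stated threshold. Their differences are therefore given as a description, and whether a probe set passed the test only places it among all probe sets.

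The 3 groups of 3 biological replicates were U87 cells given the duplex of miR-376a*A, of miR-376a*G, or of a control miRNA. In each, 100000 cells were transfected with 50 nM of the duplex using a lipid reagent, without antibiotics, and were harvested after 24 h. All groups carry a transfected duplex, and no untransfected cells were compared. The labels do not explain the letters. As published, A names the unedited miRNA, whereas G names one changed by A-to-I editing at a base in its seed, the stretch that pairs with target RNAs.

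The current name of a starred miR-376a strand is its 5p arm, and RefSeq lists 2 such mature sequences on GRCh38.p14. They are shown because the seed is what the edit alters. The labels do not say which of them the duplexes were built on, and neither line is the edited form. Capitals mark the seed, bases 2 to 8 from the 5′ end. hsa-miR-376a-5p of MIR376A1 lies at chr14:101040788-101040809 and hsa-miR-376a-2-5p of MIR376A2 at chr14:101040080-101040100, both on the plus strand.
hsa-miR-376a-5p: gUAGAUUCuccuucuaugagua
hsa-miR-376a-2-5p: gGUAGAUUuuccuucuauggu
The seeds of the 2 sequences, UAGAUUC and GUAGAUU, differ by a shift of the same run of letters.

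Wnt proteins are secreted ligands that bind Frizzled receptors on the cell surface. With the co-receptors LRP5 and LRP6 they stabilise beta-catenin, which enters the nucleus and works with TCF and LEF factors on target genes. Other ligands, WNT5A among them, act mostly through branches that do not need beta-catenin and that shape cell polarity, movement and calcium signals. Secreted antagonists tune the system: DKK1 binds LRP5 and LRP6, and SFRP1 binds the ligands themselves. WNT5A is known for its part in the movement and invasion of glioma cells, and DKK1 is itself a target of beta-catenin.

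Values are linear probe-set signals as deposited, with a 2% trimmed mean of 100.01 on every array. The SD of an array's deviations from its group mean was between 0.102 and 0.114 (log2) on the 6 miR-376a* arrays, and 0.166, 0.145 and 0.114 on control replicates 1, 2 and 3. The control group was therefore the least even. Of 9 glioma and mesenchymal marker genes with a probe set, VIM, CD44 and TNC gave signals of at least 1494 on all arrays and EGFR 448 to 626. CHI3L1 gave 98.0 to 152 and NES 63.9 to 105. SOX2 and OLIG2 were dim, at 14.4 to 26.1 and 15.2 to 23.5, and the astrocyte marker gene GFAP stayed at or under 2.43. Summed over 3 neuronal marker genes the signal was 699 to 779 with miR-376a*A, 371 to 455 with miR-376a*G and 305 to 331 in the control. SNAP25 made up nearly all of it, with 684 to 757, 357 to 440 and 293 to 314 in the same order of groups. Summed over 3 endothelial marker genes it was 90.0 to 97.0 with miR-376a*A, 50.7 to 53.3 with miR-376a*G and 45.9 to 54.4 in the control. PECAM1 carried most of that sum, while CDH5 and VWF stayed at or under 7.73 and 7.58. The 4 blood markers with a probe set summed to 64.9 to 72.2, 48.7 to 64.5 and 60.8 to 80.4 and the 3 epithelial markers to 53.6 to 57.5, 45.6 to 51.1 and 46.2 to 54.8, again with miR-376a*A, with miR-376a*G and in the control. The part of these markers in the results was not tested.

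Of the 26 probe sets, 18 had a mean log2(signal + 16) at or above the 40th percentile of all probe sets, 4.771, and were tested. The other 8 belonged to SFRP1 (3), DKK3 (2), FZD1, LRP6 and WNT5B (1 each), and their signals ranged from 0.174 to 17.1. The brightest probe set left out was WNT5B 230299_s_at, with a mean log2 value of 4.58, and the dimmest one tested was SFRP1 202037_s_at, at 4.88. Differences come from limma fitted to 32768 probe sets on all 9 arrays, and a probe set passed where its p, adjusted over all of them after Benjamini and Hochberg, was under 0.05. Every difference is on the log2(signal + 16) scale, and every fold is a ratio of signal + 16. Both understate the change, most for dim probe sets, so folds are smaller than ratios of the printed signals. Each array was also left out alone, and a call said to end without certain arrays ended when any single one of them was left out.

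DKK1 rose with the edited form. Its signal was 248.7, 251.0 and 253.8 on the 3 miR-376a*G arrays, against 102.7, 104.5 and 108.9 in the control. The groups lay far apart, and the 3 miR-376a*G values averaged 251.2 with an SD of 2.6. In bulk RNA, fewer cells of a kind and less RNA per cell cannot be told apart. The difference was 1.14 ± 0.072 (SE), or 2.2-fold, with limma's adjusted p at 3.16e-07. With miR-376a*A the signal was 88.8, 93.6 and 83.3, so all 3 arrays lay below the lowest control array. That difference, -0.22 ± 0.072 (SE), had an adjusted p of 0.0507 in limma and did not pass, but it passed without control replicate 1 (-0.23, adjusted p = 0.0286) and under 6 of 12 processing alternatives (adjusted p between 0.00148 and 0.0488). Between the forms DKK1 was 2.56-fold lower with miR-376a*A than with miR-376a*G (-1.35 ± 0.072, SE). The order of the levels was thus miR-376a*G, control and miR-376a*A, and the step between the last pair was the small one. DKK1 has a single probe set, so no second measurement of the gene was at hand.

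**Figure D1:**
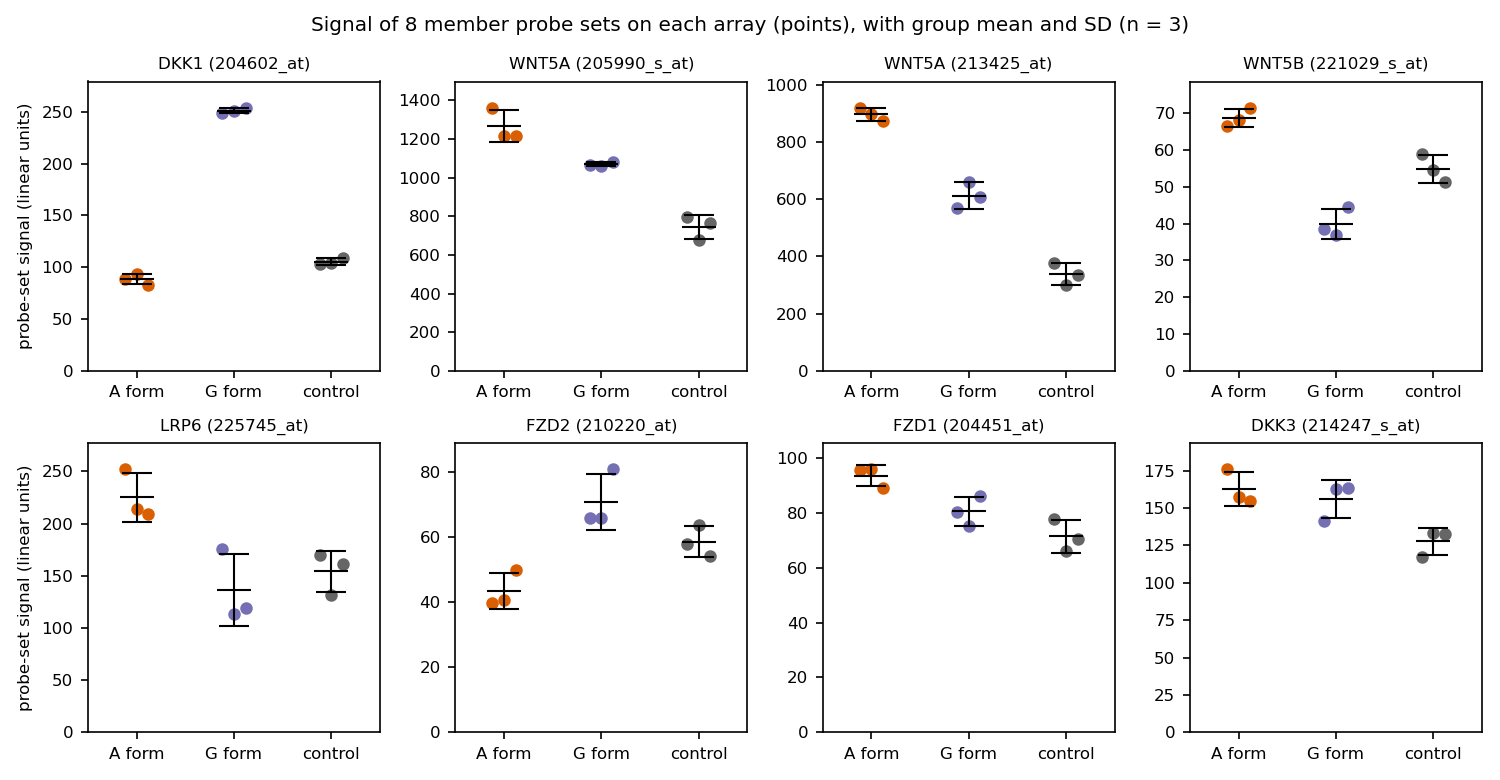
Probe-set signal (linear units) of 8 probe sets on each array with miR-376a*A, miR-376a*G and the control miRNA. Points are arrays, long bars are group means and whiskers the SD (n = 3). The 3 miR-376a*G arrays of DKK1 sit at 248.7 to 253.8, above all other arrays, while both WNT5A probe sets are highest with miR-376a*A and lowest in the control.

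The promoter of DKK1 is shown because DKK1 is a known beta-catenin target and had the largest difference between the forms among the members. The sequence is that of RefSeq on GRCh38.p14, chr10:52314031-52314330 on the plus strand, from 250 bases before to 50 bases after the start of the gene. Capitals mark 3 matches. The TCF/LEF core CTTTGA occurs at position -95 and its reverse complement TCAAAG at position -149, and the TEAD core GGAATG at position -50, each counted to the first base of the match from the start of the gene.
DKK1 promoter: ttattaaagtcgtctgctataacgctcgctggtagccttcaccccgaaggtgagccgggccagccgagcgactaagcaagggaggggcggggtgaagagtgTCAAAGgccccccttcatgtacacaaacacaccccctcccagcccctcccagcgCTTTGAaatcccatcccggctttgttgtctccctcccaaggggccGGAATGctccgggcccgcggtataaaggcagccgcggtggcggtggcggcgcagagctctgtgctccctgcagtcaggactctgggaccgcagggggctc
For comparison the promoters of both start sites that RefSeq gives for WNT5A follow, at chr3:55487257-55487556 and chr3:55481349-55481648 on the minus strand. They are shown because WNT5A rose with both forms. Neither holds the TCF/LEF core, the TEAD core or the AP-1 motif TGANTCA on either strand, and they are therefore in lower case throughout. The promoters at hand for WNT5B and FZD1, not shown, held none of these motifs either, and that of DKK1 held no AP-1 match.
WNT5A promoter of the upstream start: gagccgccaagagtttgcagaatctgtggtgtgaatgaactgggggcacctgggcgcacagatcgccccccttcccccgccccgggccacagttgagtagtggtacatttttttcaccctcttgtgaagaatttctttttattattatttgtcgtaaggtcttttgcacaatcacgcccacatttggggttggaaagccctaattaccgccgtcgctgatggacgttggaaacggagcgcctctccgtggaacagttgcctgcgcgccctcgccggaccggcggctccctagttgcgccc
WNT5A promoter of the downstream start: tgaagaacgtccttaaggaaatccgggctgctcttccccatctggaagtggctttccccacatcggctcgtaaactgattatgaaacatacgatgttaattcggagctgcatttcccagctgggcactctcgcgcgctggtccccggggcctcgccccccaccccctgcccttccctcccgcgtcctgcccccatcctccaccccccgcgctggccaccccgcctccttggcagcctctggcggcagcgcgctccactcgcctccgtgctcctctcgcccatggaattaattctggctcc
Of 35116 promoters of this length, 12.9% held the TCF/LEF core, 14.0% the TEAD core and 7.71% the AP-1 motif on at least one strand. The motifs do not share letters in the matches found. A match says only that these letters are present.

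WNT5A, a ligand that works mostly without beta-catenin, rose with both forms on both of its probe sets. Probe set 205990_s_at gave 1362, 1218 and 1219 with miR-376a*A and 1065, 1062 and 1081 with miR-376a*G, against 799, 676 and 764 in the control. Probe set 213425_at gave 919.8, 899.5 and 874 with miR-376a*A and 568, 661 and 607 with miR-376a*G, against 376.1, 298.9 and 337.0 in the control. No array of one group reached into another on either probe set. The rise with miR-376a*A was 0.75 ± 0.072 and 1.38 ± 0.084 (SE) on the 2 probe sets, or 1.68-fold and 2.6-fold. With miR-376a*G it was 0.51 ± 0.072 and 0.83 ± 0.084 (SE), or 1.43-fold and 1.78-fold. Both comparisons share the control arrays. Compared directly, WNT5A was higher with miR-376a*A than with miR-376a*G by 0.24 ± 0.072 on 205990_s_at and by 0.54 ± 0.084 (SE) on 213425_at. The first of these calls (limma's adjusted p = 0.0361) ended without any one of the 6 arrays of the 2 forms, with adjusted p between 0.0604 and 0.151, and after centring each array on its median, with 0.0694. The second held without each of the 9 arrays in turn. WNT5A and DKK1 therefore ranked the groups differently, with DKK1 highest with miR-376a*G and WNT5A highest with miR-376a*A.

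WNT5B, the close relative of WNT5A, was split between the forms. Its brighter probe set, 221029_s_at, gave 66.5, 68.0 and 71.4 with miR-376a*A and 38.5, 36.8 and 44.4 with miR-376a*G, against 58.9, 54.7 and 51.2 in the control. The 3 groups did not overlap. The signal fell by 0.34 ± 0.087 (SE) with miR-376a*G, a call that ended without miR-376a*G replicate 2 (-0.30, limma's adjusted p = 0.0567). With miR-376a*A the difference was 0.26 ± 0.087 (SE) and did not pass (adjusted p = 0.0532), although it passed without control replicate 1 (0.30, adjusted p = 0.0341) and under 7 of 12 processing alternatives (adjusted p between 0.00111 and 0.0449). Between the forms it was 1.52-fold higher with miR-376a*A (0.60 ± 0.087, SE), a call that held without each array in turn. Probe set 223537_s_at gave 0.36 ± 0.098 (SE) between the forms, which passed except when replicate 1 or 2 of miR-376a*A, or replicate 3 of miR-376a*G, was dropped (adjusted p between 0.0658 and 0.0909). Against the control this second probe set gave 0.29 ± 0.098 with miR-376a*A and -0.08 ± 0.098 (SE) with miR-376a*G, and neither passed. Without control replicate 2 the first of these passed (0.34, adjusted p = 0.0415). It also passed under 5 of the 9 processing alternatives that gave it a value (adjusted p between 0.000943 and 0.0491).

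LRP6, the co-receptor that DKK1 binds, was higher with miR-376a*A on 1 of its 2 tested probe sets. Probe set 225745_at gave 252.1, 214.2 and 209.7 with miR-376a*A and 175.6, 113.5 and 119.3 with miR-376a*G, against 169.6, 131.9 and 161.3 in the control. All 3 miR-376a*A arrays lay above every other array, while the miR-376a*G and control arrays overlapped. The rise with miR-376a*A was 0.51 ± 0.139 (SE), and it ended without miR-376a*A replicate 1 (0.43) or control replicate 2 (0.41), with limma's adjusted p at 0.0874 and 0.0625. Against miR-376a*G it was 0.68 ± 0.139 (SE), a call that held without each array. With miR-376a*G the difference from the control was -0.18 ± 0.139 (SE) and did not pass, although without miR-376a*G replicate 1, the highest array of that group, it passed at -0.36 (adjusted p = 0.0482). The dimmer probe set 34697_at, with group means of 20.5, 23.2 and 20.9 for miR-376a*A, miR-376a*G and the control, gave -0.02 to 0.09 against the control and did not pass. Between the forms it gave -0.11 ± 0.111 (SE), the opposite sign to the brighter probe set, and did not pass.

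Against the control, the receptor genes moved less than DKK1 with miR-376a*G or WNT5A with either form. The probe sets of a receptor gene often disagreed. FZD2 probe set 210220_at gave 39.8, 40.8 and 50.0 with miR-376a*A and 66.0, 66.0 and 80.9 with miR-376a*G, against 57.9, 63.7 and 54.3 in the control. The groups did not overlap, with miR-376a*A lowest. It fell by 0.33 ± 0.102 (SE) with miR-376a*A, a call lost when the first or second array of miR-376a*A or of the control was dropped (limma's adjusted p between 0.0520 and 0.122). Between the forms it was 1.46-fold lower with miR-376a*A (-0.55 ± 0.102, SE), without exception when single arrays were left out. The other FZD2 probe set, 238129_s_at, gave 0.17 ± 0.097 (SE) with miR-376a*A, the opposite sign, and did not pass there. It rose by 0.35 ± 0.097 (SE) with miR-376a*G, except when miR-376a*G replicate 2, miR-376a*G replicate 3 or control replicate 1 was dropped (adjusted p between 0.0531 and 0.0881).

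FZD1 probe set 204451_at gave 95.6, 95.8 and 89.0 with miR-376a*A and 80.4, 75.3 and 86.0 with miR-376a*G, against 77.7, 66.1 and 70.3 in the control. Its rise with miR-376a*A was 0.33 ± 0.084 (SE), with limma's adjusted p at 0.0523 and 0.0582 without miR-376a*A replicate 1 or 2. The second FZD1 probe set gave -0.06 ± 0.116 (SE) there and did not pass. FZD7 probe set 203706_s_at rose by 0.38 ± 0.117 (SE) with miR-376a*G, with dim signals of 21.9, 26.5 and 22.7, against 12.9, 12.5 and 18.4 in the control. That call ended without any of the 3 miR-376a*G arrays, and likewise without replicate 1 or 2 of the control, with adjusted p between 0.0502 and 0.115. The brighter FZD7 probe set 203705_s_at stood at 0.11 ± 0.105 (SE) in the same comparison.

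DKK3, a divergent member of the DKK family, was a little higher with both forms on its brightest probe set. Probe set 214247_s_at gave 175.8, 157.2 and 154.8 with miR-376a*A and 141.3, 162.8 and 163.5 with miR-376a*G, against 117.5, 133.5 and 132.4 in the control. The difference was 0.31 ± 0.086 with miR-376a*A and 0.26 ± 0.086 (SE) with miR-376a*G, and both passed. The first ended without miR-376a*A replicate 1 (limma's adjusted p = 0.0909). The second was lost when replicate 2 or 3 of either form, or control replicate 1 or 3, was dropped (adjusted p between 0.0602 and 0.152). The 3 other tested DKK3 probe sets gave 0.09 to 0.33 with miR-376a*A and -0.18 to 0.23 with miR-376a*G, and none passed. Without miR-376a*G replicate 3, which read 42.3 against 67.0 and 74.6 on the other arrays of its group, 202196_s_at passed with miR-376a*A (0.33, adjusted p = 0.0279) and with miR-376a*G (0.38, adjusted p = 0.0240). Without control replicate 3, 230508_at passed with miR-376a*A (0.45, adjusted p = 0.0186) and with miR-376a*G (0.34, adjusted p = 0.0492), and without miR-376a*A replicate 2, 221127_s_at passed between the forms (0.44, adjusted p = 0.0388). SFRP1, which binds Wnt ligands, was dim, with 8.03 to 14.2 with miR-376a*A, 11.5 to 13.5 with miR-376a*G and 14.0 to 17.8 in the control on its 1 tested probe set. It gave -0.22 ± 0.114 and -0.20 ± 0.114 (SE) against the control and did not pass.

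Several of these calls depended on how the probe sets were handled. With the probe sets of a gene averaged, the rises of FZD1 and LRP6 with miR-376a*A came to 0.13 and 0.24 and the fall of FZD2 to -0.08, and none of the 3 passed. The LRP6 difference between the forms came to 0.29 (limma's adjusted p = 0.0522), and with miR-376a*G DKK3 came to 0.12 and WNT5B to -0.21 (adjusted p = 0.0532), so that these calls ended too. FZD2 then passed with miR-376a*G at 0.28 and WNT5B with miR-376a*A at 0.27 (adjusted p = 0.0205 and 0.0192). Without a filter on low signals the calls of FZD2 and LRP6 with miR-376a*A, of DKK3 and FZD7 with miR-376a*G, and of WNT5A 205990_s_at and WNT5B 223537_s_at between the forms ended, with adjusted p between 0.0559 and 0.0764. DKK3 with miR-376a*G and WNT5A 205990_s_at between the forms also ended with no intensity trend (0.0544 and 0.0765), and DKK3 with miR-376a*G and FZD2 with miR-376a*A when only the 6 arrays compared were fitted (0.0788 and 0.0540). The rise of DKK1 with miR-376a*G and both rises of WNT5A held under these settings.

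Counted over the 18 tested probe sets, 5 rose and 1 fell with miR-376a*A against the control. Over all probe sets 10.3% were higher and 11.1% lower. With miR-376a*G 6 were higher and 1 lower, where 11.5% of all were higher and 14.3% lower. Between the forms 5 were higher and 2 lower with miR-376a*A, where 10.2% of all were higher and 7.95% lower. Once arrays had been centred on their medians, the balance over all probe sets was 4882 higher and 3695 lower with miR-376a*G (3768 and 4686 as deposited), and 2718 higher and 3343 lower between the forms (3338 and 2604 as deposited). The groups did not overlap in 12, 9 and 8 of the 18, against 36.7%, 39.1% and 42% of all probe sets, for miR-376a*A and miR-376a*G each set against the control, and for miR-376a*A set against miR-376a*G. The median difference of the 18 was 0.22, 0.17 and 0.10, and that of all probe sets 0.02, -0.02 and 0.03. The members were named with these comparisons known, so nothing is read from these shares. Leaving out miR-376a*A replicate 1 left 2 that passed in the first comparison, where 4995 of all 32768 probe sets passed (6988 with every array). In the second, 3 passed when miR-376a*G replicate 2 was dropped and 4 when control replicate 1 was. Of all probe sets 5890 and 8748 passed there (8454 with every array).

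**Figure D2:**
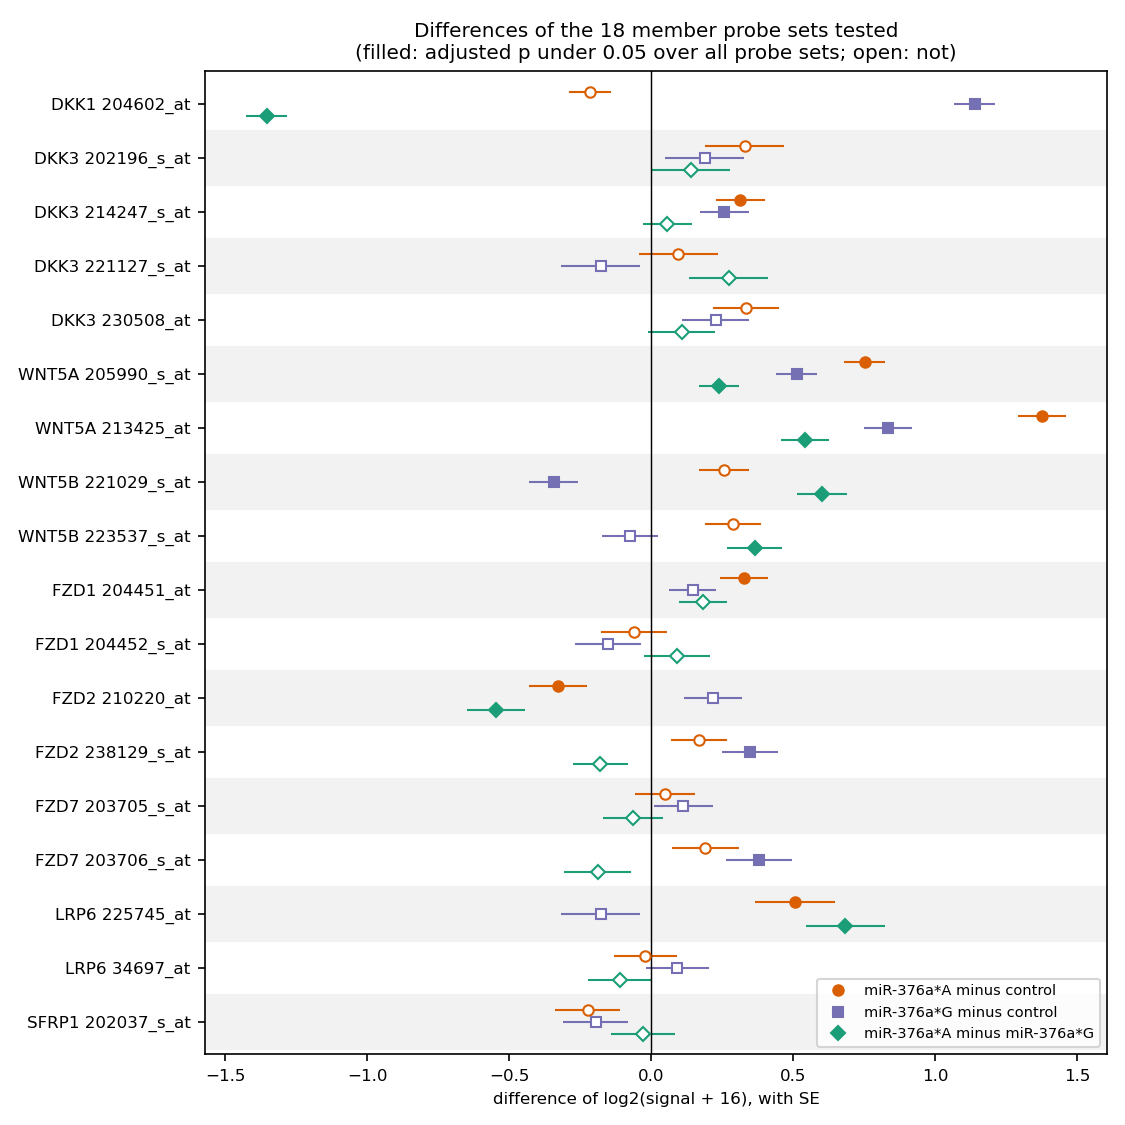
Difference of log2(signal + 16) with its SE for each of the 18 tested probe sets, as miR-376a*A minus control, miR-376a*G minus control and miR-376a*A minus miR-376a*G. Filled symbols passed and open ones did not. DKK1 stands at 1.14 for miR-376a*G minus control and -1.35 for miR-376a*A minus miR-376a*G, and the 2 probe sets of FZD2 lie on opposite sides of 0 with miR-376a*A.

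The rest of the pathway was read from 6 lists of 103 other Wnt genes, of which 98 had a probe set with a single symbol and 61 were tested, each by its brightest probe set. Where these genes passed against the control, they were mostly lower. With miR-376a*A 5 of 61 (8.20%) rose and 13 (21.3%) fell, where 10.5% of all genes rose and 12% fell. With miR-376a*G 1 (1.64%) rose and 17 (27.9%) fell, where 13.3% of all genes rose and 15.3% fell. Between the forms 14 (23.0%) were higher with miR-376a*A and 2 (3.28%) lower, where 10.8% of all genes were higher and 9.68% lower. With arrays centred on their medians 3 rose and 16 fell with miR-376a*G, where 4882 of all 32768 probe sets rose and 3695 fell. Leaving out miR-376a*A replicate 2 left 11 genes that passed with miR-376a*A, where 4729 of all probe sets passed (6988 with every array). The lists were chosen with earlier results of these data known, so nothing is read from these shares. The list medians as deposited are drawn in the plot of the pathway lists.

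**Figure D3:**
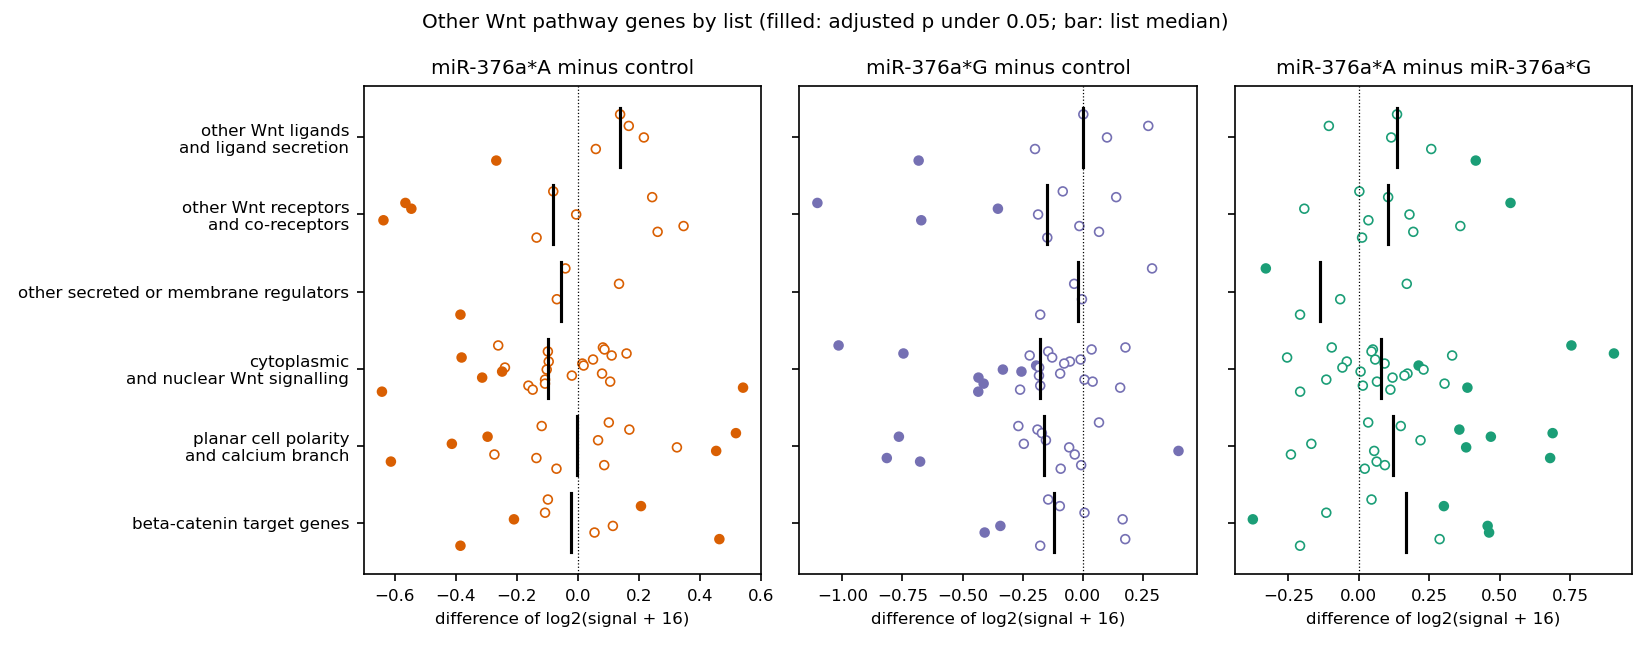
Difference of log2(signal + 16) for each tested gene of 6 Wnt pathway lists, as miR-376a*A minus control, miR-376a*G minus control and miR-376a*A minus miR-376a*G, with a separate horizontal scale in each panel. Filled points passed, open points did not, and black bars are list medians. With miR-376a*G 8 of the 24 cytoplasmic and nuclear genes are filled, all below 0.

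Read by their brightest probe set, the ligand and receptor genes outside the 9 members that passed against the control were WNT7B, FZD5, FZD6 and LGR4. Of 5 tested ligand and secretion genes 1 passed in each comparison, the ligand gene WNT7B, which fell by 0.27 ± 0.082 with miR-376a*A and by 0.68 ± 0.082 (SE) with miR-376a*G. Its signal averaged 219.9 ± 12.5 with miR-376a*A, 161.1 ± 13.0 with miR-376a*G and 268.1 ± 18.2 in the control (SD, n = 3 each). Of 9 receptor and co-receptor genes 3 fell with each form and 0 rose at limma's adjusted p under 0.05, and they were FZD5, FZD6 and LGR4 both times. Over all genes 12% fell and 10.5% rose with miR-376a*A, and 15.3% fell and 13.3% rose with miR-376a*G. Between the forms 10.8% of all genes were higher with miR-376a*A and 9.68% lower. FZD5, a Frizzled receptor gene, averaged 79.4 ± 3.2 with miR-376a*A, 49.7 ± 2.0 with miR-376a*G and 125.5 ± 13.5 in the control (SD, n = 3 each). It fell 1.48-fold with miR-376a*A and 2.15-fold with miR-376a*G, but differences of 0.28 and 0.23 (log2), neither past the threshold, came from its other tested probe set. LGR4, a receptor for R-spondins, which amplify Wnt signals, fell by 0.64 ± 0.142 and by 0.67 ± 0.142 (SE) with the A and the G form. FZD6 fell by 0.55 ± 0.100 and by 0.35 ± 0.100 (SE). The WNT7B call with miR-376a*A ended without any miR-376a*A array, miR-376a*G replicate 3 or control replicate 1 or 2 (adjusted p between 0.0514 and 0.138), and the FZD6 call with miR-376a*G without miR-376a*G replicate 1 or 2 (adjusted p = 0.0778 and 0.0787).

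Of 4 other secreted or membrane regulators, ZNRF3, a ubiquitin ligase gene that removes Frizzled receptors, fell by 0.38 ± 0.084 (SE) with miR-376a*A. With miR-376a*G it stood at -0.18 ± 0.084 (SE) and did not pass. RSPO3, an R-spondin gene, was lower with miR-376a*A than with miR-376a*G by -0.33 ± 0.103 (SE), a call that ended without any one of the 6 arrays of the forms (limma's adjusted p between 0.0629 and 0.129). Against the control RSPO3 stood at 0.29 ± 0.103 (SE) with miR-376a*G and passed when control replicate 3 was left out (0.40, adjusted p = 0.0135). It also passed under 4 of the 11 processing alternatives that gave it a value (adjusted p between 0.0313 and 0.0468).

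Of 24 tested genes of the beta-catenin machinery 8 fell, 0 rose and 16 did not pass with miR-376a*G by limma's test, where 15.3% of all genes fell. With miR-376a*A 4 fell and 1 rose, where 12% of all genes fell. APC, the scaffold of the complex that degrades beta-catenin, averaged 209.3 ± 20.0 with miR-376a*A, 117.6 ± 13.3 with miR-376a*G and 254.9 ± 35.4 in the control (SD, n = 3 each). It fell 2.02-fold with miR-376a*G, and 3 of its 4 other tested probe sets passed as lower there too. With miR-376a*A it stood at -0.26 ± 0.109 (SE) and passed without control replicate 2 (-0.37, adjusted p = 0.0244). BCL9, a nuclear partner of beta-catenin, averaged 73.4 ± 6.6 with miR-376a*A, 31.6 ± 2.0 with miR-376a*G and 63.9 ± 3.8 in the control (SD, n = 3 each). It fell 1.68-fold with miR-376a*G and was 1.87-fold higher with miR-376a*A than with miR-376a*G. The kinase gene GSK3B, whose product marks beta-catenin for degradation, fell by 0.43 ± 0.099 (SE) with miR-376a*G. The dishevelled gene DVL1 fell by 0.33 ± 0.080 (SE), and the tankyrase gene TNKS2, which limits AXIN, by 0.43 ± 0.105 (SE).

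With miR-376a*A TNKS2 fell by 0.64 ± 0.105 (SE), and GSK3B fell by 0.31 ± 0.099 (SE). The GSK3B call ended without any miR-376a*A array, replicate 2 or 3 of miR-376a*G, or replicate 1 or 3 of the control (limma's adjusted p between 0.0506 and 0.110). TCF7L2, which binds DNA as the partner of beta-catenin, rose by 0.54 ± 0.076 (SE) with miR-376a*A on its brightest probe set. Of its 5 other tested probe sets 3 passed as higher there and 1 as lower, so its probe sets did not share a direction. Between the forms 4 of the 24 genes were higher with miR-376a*A and 0 lower, where 10.8% of all genes were higher and 9.68% lower. DVL1 was not among these 4, at 0.23 ± 0.080 (SE). It passed between the forms without any one of the control arrays (adjusted p between 0.0297 and 0.0482).

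In the polarity and calcium list 3 of 14 genes fell and 2 rose with miR-376a*A, and 3 fell and 1 rose with miR-376a*G. Over all genes 12% fell and 10.5% rose with miR-376a*A, and 15.3% fell and 13.3% rose with miR-376a*G. Between the forms 5 of the 14 were higher with miR-376a*A and 0 lower, where 10.8% of all genes were higher and 9.68% lower. PRKCA, a protein kinase C gene, averaged 810.6 ± 32.7 with miR-376a*A, 775.7 ± 50.3 with miR-376a*G and 1247.8 ± 25.8 in the control (SD, n = 3 each), and fell 1.53-fold and 1.6-fold. Its 2 other tested probe sets gave -0.33 and -0.25 with miR-376a*A, where 1 passed. With miR-376a*G they gave -0.89 and -0.53, and both passed. PPP3CA, a catalytic subunit gene of calcineurin, rose by 0.45 ± 0.065 and by 0.40 ± 0.065 (SE) with the A and the G form. DAAM1, a formin gene of the polarity branch, and PRICKLE2, a polarity gene, fell by 0.76 ± 0.077 and by 0.82 ± 0.085 (SE) with miR-376a*G. With miR-376a*A DAAM1 fell by 0.30 ± 0.077 (SE), except without miR-376a*A replicate 2 or 3 (limma's adjusted p = 0.0566 and 0.0674), and PRICKLE2 stood at -0.14 ± 0.085 (SE). CELSR3, a polarity cadherin gene, rose by 0.52 ± 0.090 (SE) with miR-376a*A and was 1.61-fold higher with it than with miR-376a*G. The kinase gene MAPK8 fell by 0.41 ± 0.099 (SE) with miR-376a*A, while none of its 4 other tested probe sets passed. With miR-376a*G it stood at -0.24 ± 0.099 (SE) and passed without control replicate 2 (-0.32, adjusted p = 0.0294).

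Of 8 tested beta-catenin target genes 2 rose and 2 fell with miR-376a*A, and 0 rose and 2 fell with miR-376a*G by limma's test. AXIN2, LEF1 and ZNRF3 each stand in another list as well. The targets that fell with miR-376a*A were MYC and ZNRF3, the latter given above as a membrane regulator. Over all genes 10.5% rose and 12% fell with miR-376a*A, and 13.3% rose and 15.3% fell with miR-376a*G. Between the forms 3 targets were higher and 1 lower with miR-376a*A, where 10.8% of all genes were higher and 9.68% lower. The cyclin gene CCND1 averaged 1751 ± 36.0 with miR-376a*A, 1417 ± 27.1 with miR-376a*G and 1515 ± 49.1 in the control (SD, n = 3 each). It rose by 0.21 ± 0.053 (SE) with miR-376a*A, a call that ended after quantile normalization (0.10, adjusted p = 0.208) and when the first or second miR-376a*A array or the third control array was dropped (adjusted p between 0.0533 and 0.0626). MYC was the gene lower with miR-376a*A than with miR-376a*G, by -0.38 ± 0.067 (SE). Its fall of -0.21 ± 0.067 (SE) against the control ended without any array of either form or control replicate 2 (adjusted p between 0.0595 and 0.134). MYC stood at 0.17 ± 0.067 (SE) with miR-376a*G and passed there without control replicate 1 (adjusted p = 0.0485). The transcription factor genes SNAI2 and TBX3 fell by 0.34 ± 0.059 and by 0.41 ± 0.085 (SE) with miR-376a*G. TNFRSF19, a receptor gene, rose by 0.46 ± 0.101 (SE) with miR-376a*A, while its other tested probe set gave 0.06. Between the forms TNFRSF19 stood at 0.29 ± 0.101 (SE) and passed without control replicate 1 (adjusted p = 0.0268).

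With the probe sets of a gene averaged, the calls of FZD5, MAPK8 and TNFRSF19 with miR-376a*A ended at -0.14, -0.11 and 0.26, and those of FZD5 and TBX3 between the forms at 0.29 and 0.29. PRKCA and DVL1 then passed between the forms at 0.30 and 0.23 (limma's adjusted p = 0.00657 and 0.0479). The small falls with miR-376a*A of WNT7B, GSK3B and MYC each ended when only the 6 arrays compared were fitted (limma's adjusted p = 0.0604, 0.0672 and 0.104). WNT7B and GSK3B with miR-376a*A and RSPO3 between the forms also ended without a filter on low signals (0.0515, 0.0874 and 0.0996). WNT7B and MYC with miR-376a*A ended with quantile normalization (0.0854 and 0.106), and GSK3B, MYC and CCND1 with miR-376a*A with no intensity trend (0.0623, 0.0627 and 0.0561).

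The pattern of DKK1 over the 9 arrays was compared with that of 2172 other genes whose group means spanned at least 0.5 (log2). Pearson's r is given as a description, since the 9 values come from 3 groups and share the arrays. The 5 genes most like DKK1 were the cytokine gene LIF (r = 0.994), the matrix protease gene ADAMTS5 (0.992), the matricellular gene CCN1 (0.990), the tyrosine phosphatase gene PTPRR (0.989) and TCIM (0.989). LIF averaged 152.3 ± 6.1 with miR-376a*A, 366.6 ± 13.4 with miR-376a*G and 174.9 ± 7.3 in the control (SD, n = 3 each). ADAMTS5 averaged 206.0 ± 16.8 with miR-376a*A, 617.5 ± 14.1 with miR-376a*G and 240.1 ± 16.6 in the control, and CCN1 192.9 ± 12.1, 465.9 ± 28.2 and 220.0 ± 18.8 (SD, n = 3 each). All 5 lay highest with miR-376a*G, and their miR-376a*A mean was slightly under their control mean, as for DKK1.

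The 5 genes of the most opposite pattern were TMX1 (r = -0.996), UBP1 (-0.993), EML4 (-0.993), LMAN2L (-0.992) and the prion protein gene PRNP (-0.991). UBP1, a transcription factor gene, averaged 631.3 with miR-376a*A, 165.9 with miR-376a*G and 537.9 in the control (means of 3 arrays). PRNP averaged 1421 ± 38.7 with miR-376a*A, 655.6 ± 14.4 with miR-376a*G and 1200.2 ± 53.3 in the control (SD, n = 3 each).

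**Figure D4:**
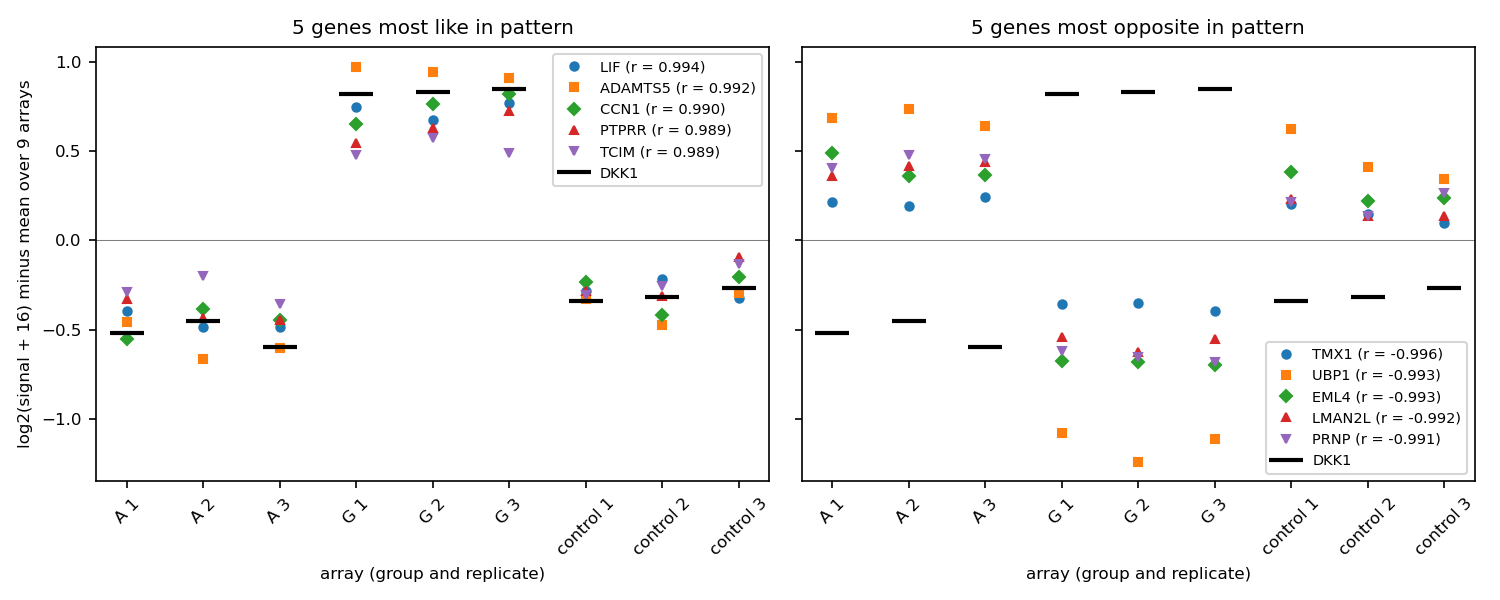
Log2(signal + 16) on each array minus the mean of the gene over all 9 arrays, for the 5 genes most like DKK1 and the 5 most opposite to it. Arrays are named by group (A for miR-376a*A, G for miR-376a*G, control) and replicate, and black bars are DKK1. The 3 miR-376a*G arrays stand above the other 6 in the first panel and below them in the second, and UBP1 spans the widest range of the 10 genes (r = -0.993).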

How the data were processed

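RNA of 9 transfected U87 cultures was hybridised to Affymetrix human arrays, 1 per sample. The authors deposited one linear signal intensity per probe set and array, with a common trimmed mean. The submitters' processing notes list GCOS 1.4.0.036 without its role. No signal algorithm is given in the sources used here, and no detection calls were used. The 54675 probe sets include 62 array controls, which were dropped. Of the others 41091 had 1 gene symbol, 1801 several and 11721 none in the platform annotation. Entrez identifiers changed 0 symbols against RefSeq (GRCh38.p14), and 54 were outside it.

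The scale of analysis was log2(signal + 16), with no scaling of arrays added. A mean of at least the 40th percentile (signal 11.3) was required, which 32768 probe sets for 13697 single-symbol genes met. limma 3.58.1 in R 4.3.3 (lmFit, eBayes with an intensity trend) was fitted to the 9 arrays together (residual degrees of freedom 6, prior 6.72), two-sided, with Benjamini-Hochberg adjustment over all probe sets. Pathway genes were read by their brightest probe set. From each list, genes that passed in a comparison whose groups did not overlap were named, up to 6 by smallest p. The 5 genes with the highest and the 5 with the lowest Pearson r to DKK1 were named. The fit was also run on simulated data, with independent values and, for each probe set, the same spread on every array. The control arrays were less even than that, so no error rate is read from the simulation. Members, lists and the naming rule were chosen with earlier results of these data known. Alternatives covered scaling, filter, offset, variance trend, probe-set rule, arrays in the fit, replicate block, array weights and leaving out each array. Same-numbered arrays did not deviate together (r between -0.103 and 0.063), so no pairing was used. No batch is named in the labels. Tables and figures were made with pandas 2.3.3, numpy 2.4.6 and matplotlib 3.10.9 under Python 3.11.15. Promoters were in the table for 4 of the 9 genes.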

Additional observations from a re-analysis of the deposited data

How the results depend on the processing

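The rise of DKK1 with miR-376a*G and its difference between the forms passed under all 12 alternatives and without each of the 9 arrays. The first ranged from 0.90 to 1.25 under the alternatives and from 1.12 to 1.16 without single arrays, and the second from -1.49 to -1.05 and from -1.39 to -1.32. For miR-376a*A against control DKK1 stood near the threshold. It passed at -0.2156 with no filter on low values, with the filter at the 60th percentile, with 1 probe set per gene and with the mean of a gene's probe sets (adjusted p = 0.0419, 0.0404, 0.0488 and 0.0254). It also passed with an offset of 1 (-0.249) and with array weights (-0.2476), and ranged from -0.2501 to -0.1789 without single arrays.

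With the replicate block DKK1 kept all 3 of its outcomes. The array weights gave control replicate 3 a weight of 6.94 and control replicate 1 one of 0.198, and with them 12, 12 and 8 member probe sets and 28, 30 and 26 pathway genes passed for miR-376a*A against control, miR-376a*G against control and between the forms. With 1 probe set per gene 4 of 9 members passed for miR-376a*G, and with the mean of a gene's probe sets 3 did, against 4 of 9 between the forms, where fewer features were tested. Without single arrays the member counts ranged from 2 to 7, 3 to 7 and 5 to 7, and the pathway counts from 11 to 18, 15 to 20 and 12 to 23. The counts over all 32768 probe sets then ranged from 4729 to 7700, 5890 to 8998 and 3819 to 8437. With the replicate block 7, 6 and 7 member probe sets and 17, 18 and 16 pathway genes passed. Of all probe sets 6430, 7952 and 5397 passed with it. The replicate block ended the calls of GSK3B and MYC with miR-376a*A (adjusted p = 0.0537 and 0.0695), of DKK3 214247_s_at with miR-376a*G (0.0661) and of RSPO3 between the forms (0.0553), and WNT5B 223537_s_at passed with it for miR-376a*A (0.29, adjusted p = 0.0491). The largest shift of the median over all probe sets from another scaling was under 0.1. Over all 32768 probe sets 6988, 8454 and 5942 passed, and with array weights 13994, 15262 and 10155. Without miR-376a*G replicate 2, 3819 passed between the forms, and without miR-376a*A replicate 2, 3961. With 1 value per gene fewer features were tested, 20068, of which 4177, 4993 and 3671 passed by the brightest probe set and 4190, 4957 and 3799 by the mean. Of 990 recomputed values of the other member probe sets 896 kept their direction and their side of the threshold, 51 lost and 31 gained a call, 12 changed sign without passing and 0 reversed. Replicate number limits the precision, and dim probe sets near the filter have no firm level.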
